A study of Mus musculus with 4 samples.

Results

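The genes described here encode the T cell receptor complex, its coreceptors and the proteins that carry its signal in the first steps below the membrane. They are a list of 36 mouse genes, given by name and function, of which 35 were measured among 19938 genes in all. Lck was not analysed here. Each of the 35 was read from its only probe set paired with that symbol alone. By the place of the protein in the pathway, 13 belonged to the receptor step, 3 of 4 listed to the kinase step, 13 to the adaptor step and 6 to the inhibitor step.

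The samples were naive CD8 T cells, isolated from BALB/c spleens by fluorescence-activated sorting. The groups were Klf13 knockout (KLF13 KO, 2 arrays) and wild type (2 arrays), with no treatment and no age given in the labels. Klf13 encodes a zinc-finger transcription factor, and the title of the series ties it to the regulation of memory-like CD8 T cells. Neither the deleted part of Klf13 nor whether the 2 samples of a genotype came from separate animals is given in the sources used here. P-values therefore reflect only how far these samples lie apart, which may be a technical spread.

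As background, the T cell receptor recognises a peptide on an MHC molecule, and the CD8 coreceptor binds the same MHC class I molecule and brings the kinase LCK to the receptor. LCK phosphorylates the CD3 and zeta chains, ZAP70 docks there and phosphorylates the adaptors LAT and SLP-76, and these assemble the enzymes that start calcium, RAS and NF-kB signalling. Phosphatases, CSK and the UBASH3 proteins dampen the same steps and set how readily a naive T cell responds.

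All values are log2 probe-set values, and every difference is the knockout mean minus the wild-type mean. Klf13 read 5.46 and 5.43 on the knockout arrays, against 7.01 and 7.15 on the wild-type arrays, a difference of -1.63. Across genes, array pairs correlated with r between 0.994 and 0.998, and the upper quartile over the probe sets was lowest on knockout replicate 1 (6.52; the other knockout array had 6.63, the wild-type arrays 6.67 and 6.66). At an adjusted p under 0.05 (Benjamini-Hochberg), limma called 448 of the 19938 genes (2.25%), of which 53.1% were higher in the knockout, and after each array was centred on its median 21.8% of the calls were. The count was 264 without knockout replicate 1, 1536 without knockout replicate 2 and 277 without wild-type replicate 1. The CD8 chains Cd8a and Cd8b1 read 10.86 or more on every array, the CD3 chains Cd3e and Cd3g 9.45 or more and Cd3d 8.88 or more. Cd4 read between 3.47 and 4.07, below the medians over all genes of 4.59 to 4.71, with the reservation that a level also reflects how well a probe set binds.

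Of the 35 genes, Cd7 rose in the knockout and the other 34 did not pass the test. That is 1 gene higher and 0 lower, beside 1.19% of all genes higher and 1.05% lower, and a share of 1 in 35 is near this background. At an unadjusted p under 0.05, 4 of the 35 were higher and 6 lower in the knockout, against 7.85% and 8.75% of all genes. Among the 2354 genes with levels of 7.74 to 9.54, the quartiles of the members' own levels, 85 were higher and 355 (15.1%) lower. No member differed by more than 1.43-fold. With arrays centred on their medians 3 members were called (Cd7, Thy1 and Ptpn22) beside 5.46% of all genes, and with a variance trend and robust moderation 5 (these, Vav1 and Rasgrp1) beside 4.17%. In a fit of the 9969 brighter genes, Cd7 alone of 34 members was called beside 6.08%. For 34 of the 35 the unadjusted 95% limma interval lay inside a 1.5-fold change either way, Cd7 being the exception; the same held for 18723 of the 19938 genes.

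**Figure D1:**
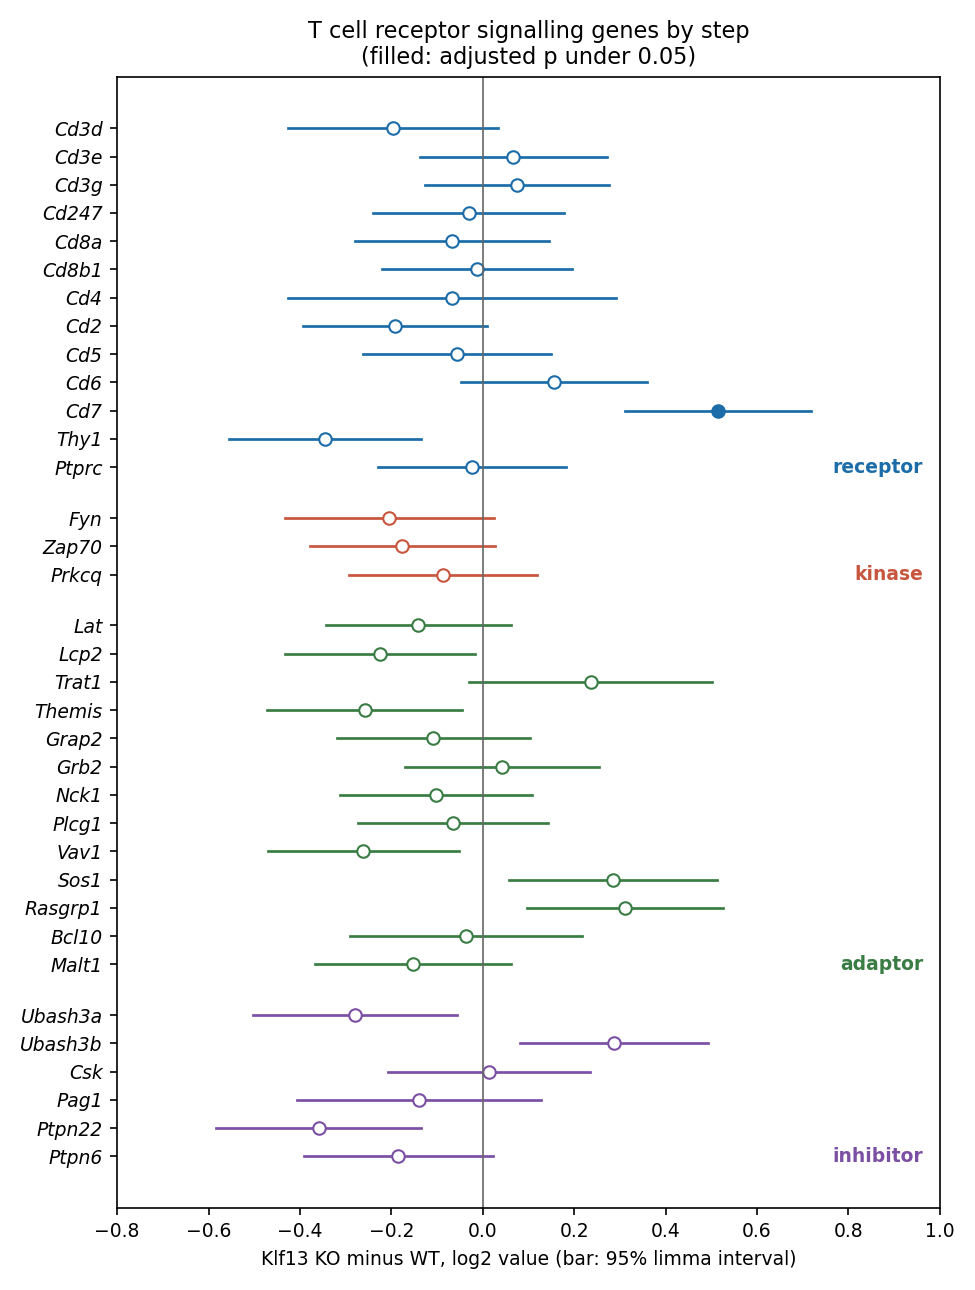
Difference between Klf13 KO and WT (log2 value, horizontal axis) for 35 genes grouped by step, with unadjusted 95% limma intervals as bars (n = 2 arrays per group). Cd7 is the filled point at 0.52, and the other points lie between -0.36 and 0.31. The sign of 12 genes, with differences from -0.14 (Pag1) to 0.08 (Cd3g), turned in at least 1 alternative setting.

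The receptor step opened with the CD3 and zeta chains, which carry the tyrosine motifs that LCK phosphorylates. Cd3e, the epsilon chain, read 9.50 and 9.57 on the knockout arrays, against 9.45 and 9.48 on the wild-type arrays. Cd3g, the gamma chain, read 11.48 and 11.45 on the knockout arrays and 11.39 and 11.39 on the wild-type arrays. For both, the knockout arrays lay above the wild-type arrays, by no more than 0.06, and the differences of 0.07 and 0.08 turned to -0.02 and -0.01 when arrays were centred on their medians. Cd3d, the delta chain, stood the other way, at 8.88 and 9.09 on the knockout arrays against 9.14 and 9.23 on the wild-type arrays (difference -0.20, limma adjusted p = 0.387). All 3 CD3 genes lie on chromosome 9. Cd247, the zeta chain, read 7.36 and 7.46 on the knockout arrays against 7.41 and 7.47 on the wild-type arrays, so the groups overlapped.

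The coreceptor chains overlapped between the genotypes as well. Cd8a read 11.11 and 11.14 on the knockout arrays, against 11.25 and 11.12 on the wild-type arrays, a difference of -0.07 with a 95% interval of -0.28 to 0.14. Cd8b1 read 10.88 and 10.92 on the knockout arrays, against 10.86 and 10.96 on the wild-type arrays, a difference of -0.01 with an interval of -0.22 to 0.20. These intervals bound what 4 arrays can show and do not establish equal levels. Cd4, the coreceptor of helper T cells, read 4.07 and 3.47 on the knockout arrays against 3.79 and 3.88 on the wild-type arrays. The 2 knockout arrays were farther apart for Cd4 than for any other member, and its difference of -0.07 became 0.23 without knockout replicate 2 and -0.36 without knockout replicate 1.

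Cd7, an immunoglobulin-family surface protein that in humans marks early T and NK lineage cells, was the member that rose. It read 8.87 and 8.93 on the knockout arrays, against 8.39 and 8.38 on the wild-type arrays. Both knockout arrays lay above both wild-type arrays, and the gap of 0.48 between the groups was wider than the 0.06 within the knockout pair and the 0.02 within the wild-type pair. The difference was 0.52 (SE 0.09, 95% interval 0.31 to 0.72), or 1.43-fold, with a limma adjusted p = 0.0189. In all, 220 genes had a smaller p. The difference stayed between 0.43 and 0.58 under every alternative run, and the adjusted p between 0.000144 and 0.142. The call was lost without wild-type replicate 1 (limma adjusted p = 0.0907), without wild-type replicate 2 (0.0932) and with all probe sets of the table tested singly (0.142).

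Some markers of other cell types moved with the genotype on the same arrays, and their part in the Cd7 result was not tested. Of the B cell markers 2 of 9 were called higher (Ighm and Cd74), of granulocyte markers 4 of 10 (Mpo, Elane, Prtn3 and Ctsg), of monocyte, macrophage and dendritic cell markers 4 of 10 (Lyz2, Csf1r, Mpeg1 and Tyrobp), of NKT and gamma-delta T cell markers 1 of 3 (Il23r) and of progenitor markers 3 of 5 (Cd34, Flt3 and Meis1). Of CD4 T cell markers 1 of 5 was called lower (Cxcr5). Over all genes, 1.19% were called higher and 1.05% lower. Among the B cell markers 2 of 9 lay below 0 (Cr2 at -0.06 and Fcer2a at -0.09), and Ms4a1 differed by 0.01. Among the granulocyte markers 1 of 10 lay below 0 (Ly6g at -0.12). Among the monocyte, macrophage and dendritic cell markers 0 of 10 did, with Cd14 at 0.04 and Adgre1 at 0.09. Among 6 NK cell markers the limma test called 0. At an unadjusted p under 0.05, 2 of them were higher and 1 lower, against 7.85% and 8.75% of all genes. Summed on the linear scale, the progenitor markers came to 717.9 and 805.4 on the knockout arrays and 517.7 and 524.7 on the wild-type arrays, and the granulocyte markers to 904.8 and 990.0 against 282.0 and 329.9. The B cell markers summed to 1114 and 1133 on the knockout arrays against 742.0 and 760.6 on the wild-type arrays, and the monocyte, macrophage and dendritic cell markers to 1472 and 1556 against 1118 and 1139. The NK cell markers summed to 182.6 and 201.5 on the knockout arrays, against 210.8 and 210.4 on the wild-type arrays, the CD4 T cell markers to 113.2 and 112.0 against 117.6 and 108.7, and the NKT and gamma-delta T cell markers to 143.7 and 168.6 against 122.8 and 129.8. Single bright genes carried several of these sums. Cst3 made up 83.8% to 86.8% of the monocyte, macrophage and dendritic cell sum, and Klrd1 66.4% to 72.7% of the NK cell sum. Kit made up 65.6% to 72.6% of the progenitor sum and Ighm 48.0% to 58.1% of the B cell sum. Mpo made up 37.8% to 48.8% of the granulocyte sum. The 6 granulocyte markers not called (S100a8, S100a9, Ngp, Camp, Ltf and Ly6g) had mean levels of 2.65 to 3.83. Their differences ran between -0.12 and 0.33. No value on this scale is 0, and detection calls were not used. In sorted bulk samples such as these, fewer cells of a type and less RNA per cell cannot be told apart.

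**Figure D2:**
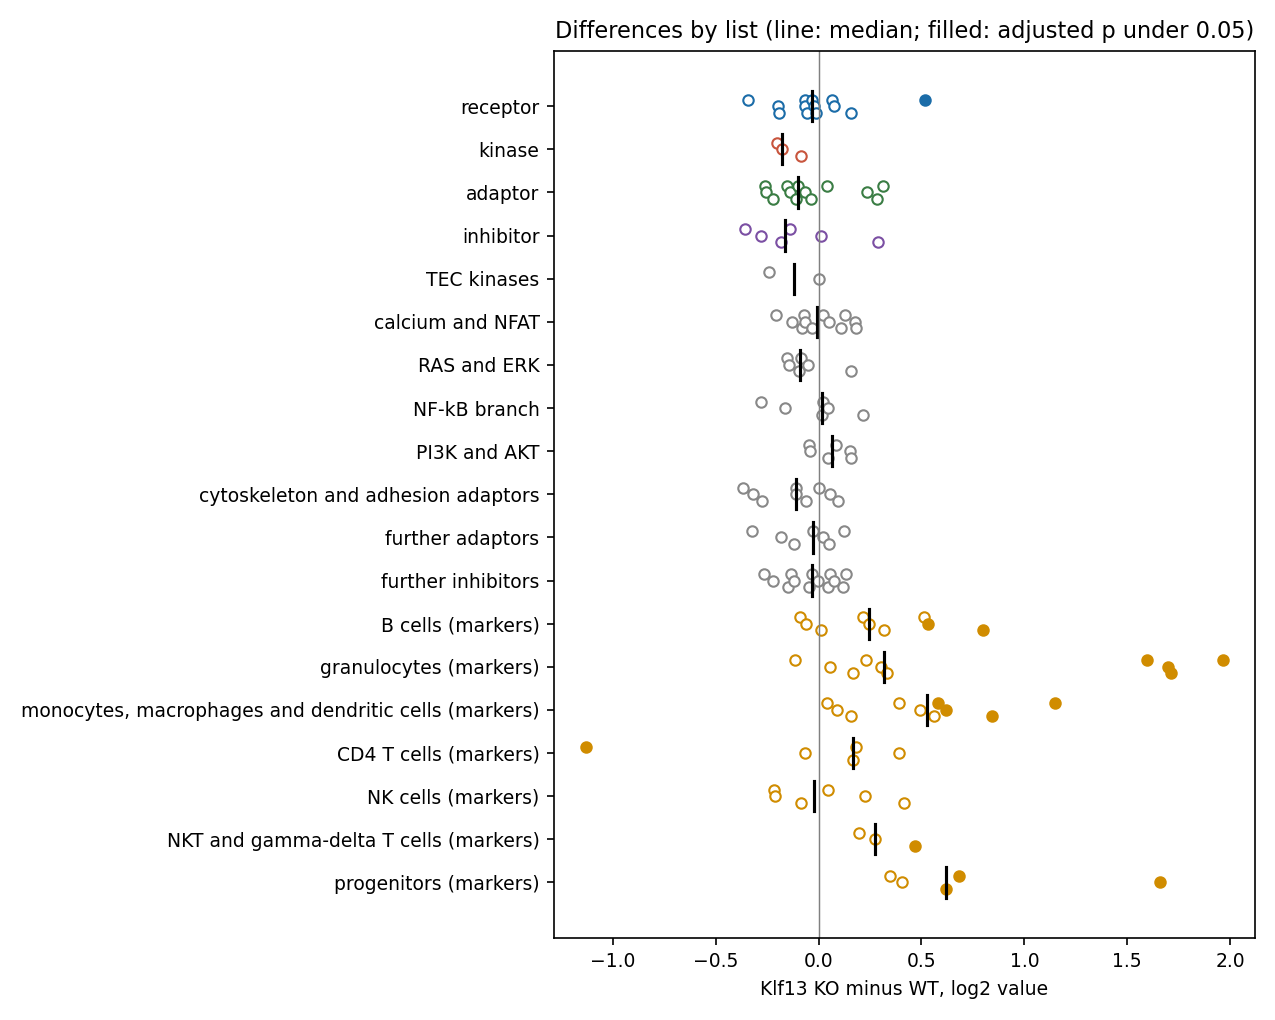
Difference between Klf13 KO and WT (log2 value, horizontal axis) for each gene of the 4 steps, of 8 further lists of the pathway and of 7 lists of markers of other cell types, with the list median as a line and called genes filled (n = 2 arrays per group). The steps and pathway lists lie between -0.37 and 0.52 with Cd7 as the filled point among them, while granulocyte markers reach 1.97 and progenitor markers 1.66.

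The other surface proteins of the receptor step did not pass. Thy1, the glycolipid-anchored protein that marks mouse T cells, read 9.35 and 9.47 on the knockout arrays, against 9.75 and 9.76 on the wild-type arrays. The groups did not overlap, as in 23.2% of all genes with both knockout arrays lower. Its difference of -0.34 (SE 0.09) had a limma adjusted p = 0.109. It passed when arrays were centred on their medians (0.0261), with a variance trend and robust moderation (0.00213) and without knockout replicate 2 (0.0443). Cd2, an adhesion receptor for CD48 in the mouse, read 9.72 and 9.73 on the knockout arrays against 9.91 and 9.93 on the wild-type arrays (difference -0.19, limma adjusted p = 0.327). The scavenger-receptor family members Cd5 and Cd6, which temper receptor signals, differed by -0.06 and 0.16. Ptprc, the CD45 phosphatase that keeps LCK ready to act, differed by -0.02. The median over the 13 genes of this step was -0.031, and it turned to 0.012 after a further quantile normalization.

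**Figure D3:**
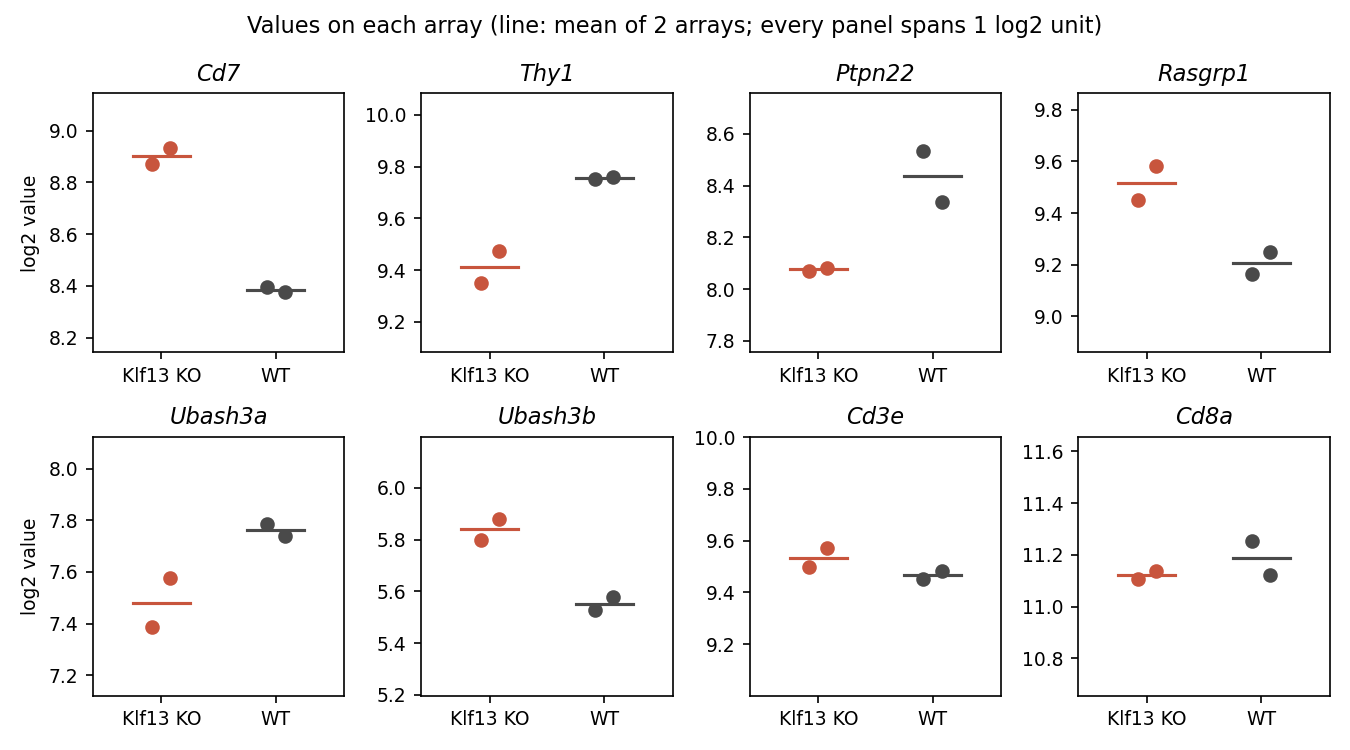
Log2 value on each array (points) and group mean (line) of 8 members in Klf13 KO and WT (n = 2 arrays per group); every panel spans 1 log2 unit. The groups stand apart for Cd7, Thy1, Ptpn22, Rasgrp1, Ubash3a and Ubash3b, Cd3e is parted by 0.01 and Cd8a overlaps. Of these 8 the limma test called Cd7. Over all genes, both knockout arrays were higher in 24.4% and lower in 23.2%.

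At the kinase step, the 3 measured genes each read lower in both knockout arrays than in both wild-type arrays, and none passed. Zap70, the kinase that binds the phosphorylated CD3 and zeta chains, read 7.75 and 7.80 on the knockout arrays, against 7.94 and 7.96 on the wild-type arrays (difference -0.18, limma adjusted p = 0.381). Fyn, a Src-family kinase related to LCK, read 8.86 and 9.08 on the knockout arrays against 9.16 and 9.19 on the wild-type arrays (-0.20, limma adjusted p = 0.362). Prkcq, the protein kinase C theta that leads to NF-kB, read 9.54 and 9.56 on the knockout arrays against 9.59 and 9.68 on the wild-type arrays (-0.09, limma adjusted p = 0.697). Their median was -0.176, and it was -0.096 without knockout replicate 1. At an unadjusted p under 0.05 the count was also 0 of 3. Groups with both knockout arrays lower, as in these 3, were found for 23.2% of all genes and for 48% of genes of like level (7.74 to 9.54, the quartiles of the members' own levels). Prkcq, at a mean level of 9.59, lies just above that band.

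Of the 13 genes of the adaptor step, which also holds the enzymes and exchange factors that the adaptors gather, 0 passed the limma test. At an unadjusted p under 0.05 there were 2 higher and 3 lower, against 7.85% and 8.75% of all genes. Of the 2354 genes with levels of 7.74 to 9.54, 85 were higher and 355 (15.1%) lower. The scaffold pair of the step is Lat and Lcp2, the gene of SLP-76. Lat read 9.73 and 9.72 on the knockout arrays against 9.84 and 9.89 on the wild-type arrays, a difference of -0.14. Lcp2 read 8.93 and 8.84 on the knockout arrays against 9.14 and 9.09 on the wild-type arrays, a difference of -0.22 (limma adjusted p = 0.266). Neither gene's groups overlapped, and both knockout arrays were lower, as in 23.2% of all genes and 48% of genes with levels of 7.74 to 9.54. Lcp2 (mean level 9.00) lies in that band, and Lat (9.79) lies above it. Lat is the member that shares chromosome 7 with Klf13. Grap2, whose product GADS links SLP-76 to LAT, differed by -0.11, Grb2, the adaptor that brings SOS to LAT, by 0.04, and Nck1, which ties the complex to actin, by -0.10. Themis, which sets the strength of receptor signals during thymic selection, read 8.26 and 8.40 on the knockout arrays against 8.57 and 8.61 on the wild-type arrays (-0.26, limma adjusted p = 0.220). Trat1, a transmembrane adaptor of the receptor, differed by 0.24, with the knockout arrays at 5.45 and 5.80 and the wild-type arrays at 5.41 and 5.37.

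The exchange factors of this step lay on both sides of 0. Rasgrp1, which loads RAS with GTP in answer to diacylglycerol, read 9.45 and 9.58 on the knockout arrays, against 9.16 and 9.25 on the wild-type arrays. Sos1, the other RAS exchange factor, read 6.56 and 6.70 on the knockout arrays against 6.43 and 6.26 on the wild-type arrays. In both, the knockout arrays lay above the wild-type arrays, with differences of 0.31 (limma adjusted p = 0.146) and 0.28 (limma adjusted p = 0.204). Both knockout arrays were higher in 24.4% of all genes and in 12.8% of genes with levels of 7.74 to 9.54. Rasgrp1 (mean level 9.36) lies in that band, but Sos1 (6.49) lies below it. Vav1, an exchange factor phosphorylated below the receptor, read 8.49 and 8.59 on the knockout arrays against 8.77 and 8.83 on the wild-type arrays, a difference of -0.26 (limma adjusted p = 0.204). With a variance trend and robust moderation Rasgrp1 (0.00859) and Vav1 (0.0491) passed. Plcg1, the phospholipase that produces diacylglycerol and the calcium-releasing inositol phosphate, differed by -0.07, and Bcl10 and Malt1, which lead to NF-kB, by -0.04 and -0.15. The median of the adaptor step was -0.102, and it was -0.044 without knockout replicate 1.

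Among the 6 inhibitors, too, the limma test called 0. At an unadjusted p under 0.05, 1 was higher and 2 lower, against 7.85% and 8.75% of all genes. Of the 2354 genes with levels of 7.74 to 9.54, 85 were higher and 355 (15.1%) lower. Ptpn22, a phosphatase that acts on LCK and ZAP70, read 8.07 and 8.08 on the knockout arrays, against 8.54 and 8.34 on the wild-type arrays. The groups did not overlap, as in 48% of genes of like level with both knockout arrays lower. Its difference of -0.36 (SE 0.10) had a limma adjusted p = 0.114. It passed when arrays were centred on their medians (0.0245) and with a variance trend and robust moderation (0.0171). The paralogues Ubash3a and Ubash3b, suppressors of receptor signalling that bind ubiquitin, stood on opposite sides. Ubash3a read 7.39 and 7.58 on the knockout arrays against 7.79 and 7.74 on the wild-type arrays (-0.28, limma adjusted p = 0.202). Ubash3b, the more active phosphatase of the pair, read 5.80 and 5.88 on the knockout arrays against 5.53 and 5.58 on the wild-type arrays (0.29, limma adjusted p = 0.162). Both signs held under each alternative run, but neither gene passed under any of them. Ptpn6, the phosphatase SHP-1, differed by -0.18, Csk, the kinase that shuts LCK, by 0.01, and Pag1, which anchors CSK at the membrane, by -0.14. The median of the inhibitor step was -0.162, with -0.064 without knockout replicate 1 and -0.260 without knockout replicate 2.

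Klf13 belongs to a family that binds CACCC and GC-rich boxes, so the letters of the promoters held in the reference tables were read for 27 members (36 windows of 250 bases before a start, RefSeq, GRCm38.p6). The motif CACCC, searched on both strands, was in 61.1% of the member windows and in 52% of all 32851 windows. CCGCCC, likewise on both strands, was in 27.8% and 32.7%, and matches of the 2 motifs may overlap. Each window of a gene counts separately in both sets, and the windows of Themis and those of Ptprc overlap in part. Ptpn22 and Rasgrp1 are shown because, after Cd7 and Thy1, they had the smallest p and lay on opposite sides of 0. Ptpn22 has 2 windows, of which the upstream one is printed, and capitals mark both motifs on either strand. The Ptpn22 window lies at chr3:103859545-103859794 on the plus strand, and the Rasgrp1 window at chr2:117342878-117343127 on the minus strand.
Ptpn22: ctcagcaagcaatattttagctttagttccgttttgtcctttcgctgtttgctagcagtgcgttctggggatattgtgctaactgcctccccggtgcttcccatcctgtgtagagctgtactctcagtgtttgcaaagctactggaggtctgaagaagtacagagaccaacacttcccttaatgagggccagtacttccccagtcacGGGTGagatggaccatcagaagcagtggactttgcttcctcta
Rasgrp1: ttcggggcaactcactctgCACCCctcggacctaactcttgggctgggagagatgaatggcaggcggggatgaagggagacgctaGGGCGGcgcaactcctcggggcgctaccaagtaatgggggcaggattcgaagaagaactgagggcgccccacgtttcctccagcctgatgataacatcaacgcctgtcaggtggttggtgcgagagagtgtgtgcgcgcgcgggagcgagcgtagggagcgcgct
The printed Ptpn22 window holds 1 match to CACCC, in its reverse form, and 0 to CCGCCC, while the Rasgrp1 window holds 1 to each. The other Ptpn22 window, at chr3:103860027-103860276, holds 0 to each. For Cd7 and Thy1 no window was held. These are matches of letters and not sites of binding.

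Over all 35 genes the median difference was -0.067, beside 0.015 over all genes. With arrays centred on their medians it was -0.154, beside -0.071 over all genes. Centring shifts the difference of every gene alike, so the members' median minus that of all genes stayed at -0.082. After a further quantile normalization the members' median was -0.015, beside -0.002 over all genes. Of the 35, 25 lay below 0 (71.4%), against 45.9% of all genes, and after the further quantile normalization 19 did. In 17 of the 35 the 2 knockout arrays were both below the wild-type pair, and in 8 both above, beside 23.2% and 24.4% of all genes. The members are bright on these arrays, with a median level of 8.64 against 4.64 over all genes, and differences moved with level across the whole table. The median difference was 0.095 among 1499 genes with levels of 4.0 to 4.5 and -0.083 among 1179 genes with levels of 7.5 to 8.0. Among the 2354 genes with levels between 7.74 and 9.54, which are the lower and upper quartiles of the members' own levels, the median was -0.082 and 74.2% lay below 0. In 48% of those genes the knockout arrays were both below the wild-type pair and in 12.8% both above, beside 48.6% and 22.9% of the members. The shares of members below 0 and with both knockout arrays lower were thus near those of all genes of like level. The share of members with both knockout arrays higher (22.9%) was above that of these genes (12.8%). The members' own levels ran from 3.8 to 11.43, wider than this band. This comparison with genes of like level was chosen after the values had been seen.

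**Figure D4:**
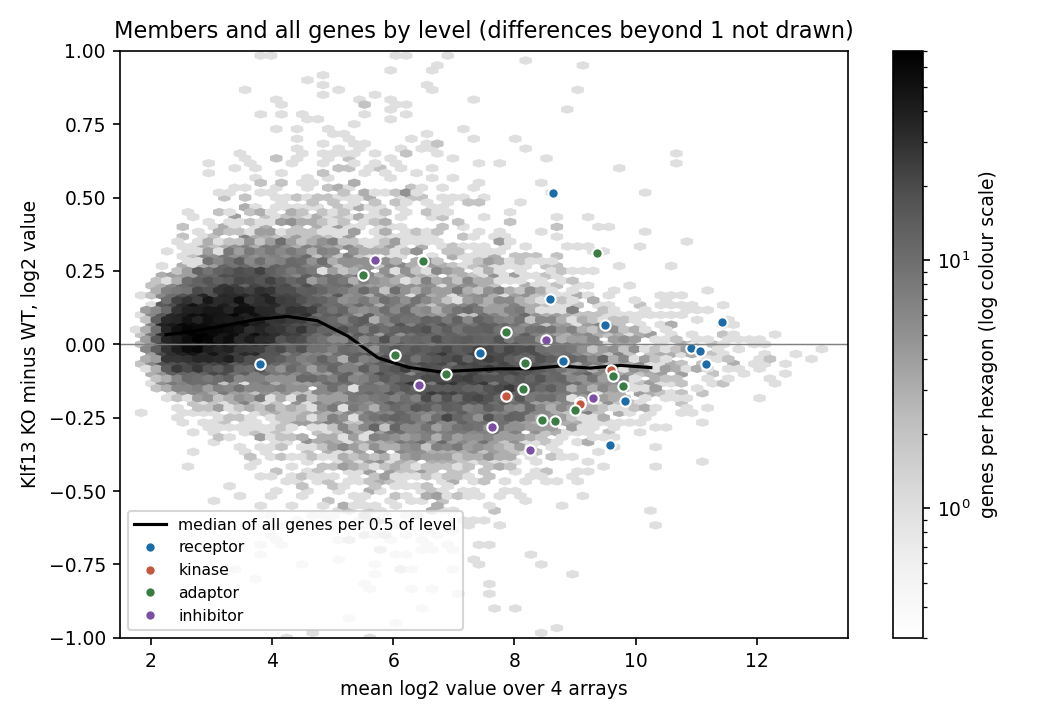
Mean log2 value over the 4 arrays (horizontal axis) against the difference between Klf13 KO and WT (log2 value, vertical axis) for all genes (grey hexagons, log colour scale), with their median per 0.5 of level as a line and the 35 members as points coloured by step. The line lies above 0 for dim genes and near -0.08 for bright ones, and most members lie around it, with Cd7 at 0.52 above.

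By array, the median of the members about their own means was -0.066 in knockout replicate 1 and 0.004 in knockout replicate 2, against 0.042 and 0.045 on the wild-type arrays. The lowest of the 4 was thus knockout replicate 1, the array that also had the lowest upper quartile. Member by member, the knockout arrays differed by a median of 0.092 and the wild-type arrays by 0.056, and arrays of different genotype by 0.128 to 0.193. Without knockout replicate 1 the median over the members was -0.053, with 21 of 35 below 0.

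Further genes of the pathway, in 8 lists of 72 genes by function, showed 0 calls among the 61 measured. At an unadjusted p under 0.05, 1 was higher and 8 lower, against 7.85% and 8.75% of all genes. Of the 2354 genes with levels of 7.74 to 9.54, the quartiles of the levels of the 35 members, 85 were higher and 355 (15.1%) lower. The differences of the 61 ran between -0.37 and 0.21, and their median was -0.033. The 4 with the smallest p were Skap1, an adaptor that couples the receptor to integrins (-0.37, limma adjusted p = 0.112), Wipf1, the partner of the actin regulator WASP (-0.32, limma adjusted p = 0.116), Lax1, a transmembrane adaptor that limits signalling (-0.32, limma adjusted p = 0.124), and Ikbkb, the kinase that releases NF-kB (-0.28, limma adjusted p = 0.183). In each of these 4 both knockout arrays were lower, as in 20 of the 61 (32.8%) and in 23.2% of all genes. The same held for 38.8% of the 9969 brighter genes and for 48% of genes with levels of 7.74 to 9.54. The median level of the 61 was 7.75, with a range of 4.39 to 11.44, so that band does not cover all of them. By list the medians were -0.007 for calcium and NFAT (12 genes), -0.089 for RAS and ERK (6), 0.019 for the NF-kB branch (6), 0.065 for PI3K and AKT (6), -0.108 for cytoskeleton and adhesion adaptors (9), -0.025 for further adaptors (7) and -0.033 for further inhibitors (13), and the 2 TEC kinases measured differed by -0.24 (Txk) and 0.00 (Tec).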

How the data were processed

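RNA of 4 samples was hybridised to 1-colour Affymetrix arrays, 1 per sample. The authors deposited a table of log2 values, 1 per probe set. The submitters' processing notes name RMA and Partek without versions, and the table has the scale of RMA output. RMA corrects background and equalises probe distributions, so a shift of most genes would be removed and folds of dim genes are compressed. The number of arrays limits the precision.

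Of 35556 probe sets, GEO's platform annotation paired 21789 with 1 symbol, 1621 with several and 12146 with none listed. Symbols were updated by gene identifier to RefSeq names of GRCm38.p6 (21698 matched). The files name no build, so no gene coordinates are given; promoter windows are those of the RefSeq table. Where several probe sets had the same single symbol, the one brightest on average was taken, giving 19938 genes, with no filter on level.

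Knockout and wild type were compared by lmFit and eBayes of limma 3.58.1 under R 4.3.3 (two-sided p, adjusted by Benjamini-Hochberg across all genes and called under 0.05; prior degrees of freedom 8.06), a script tested on simulated data. An exact permutation test of 2 against 2 arrays cannot go below p = 0.333 and was not used. Lists are described by counts and medians. Members, steps and lists were chosen with earlier results of these data known. All members are accounted for; those called, the 4 with the smallest p and the CD3, coreceptor and kinase genes are given by array, with others added. Of the further pathway lists, the 4 with the smallest p are named, and of the marker lists the called genes; Txk and Tec, the TEC kinases measured, were named besides.

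Alternatives averaged the probe sets of a gene, kept the 9969 brighter genes, used 2 other scalings, modelled a variance trend robustly, took the replicate number as a block, and used 3 of the 4 arrays in turn or all probe sets singly; for single members the last was added after the data had been seen.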

Additional observations from a re-analysis of the deposited data

How the results depend on the processing

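Over 11 alternatives, 23 of the 35 members kept their sign throughout, and Cd7 kept its call in 8 of the 11. The cause of the changes that follow was not tested. The number of genes called, 448, became 1088 with arrays centred on their medians, 831 with a variance trend and robust moderation, 1187 with the replicate block, 39 with all probe sets tested singly, and between 264 and 1536 with 1 array left out. The number of members called, 1, became 3 with centring, 5 with the variance trend, 3 with the replicate block, 0 with all probe sets tested singly, and between 0 and 2 with 1 array left out; the further pathway genes gave 3, 5 and 1 in the first 3 of these and between 0 and 2 with 1 array left out. Same-numbered samples did not deviate together (correlation of their deviations over genes 0.0074), so the values showed no pairing by number. With 2 samples per group this cannot settle whether the numbers stand for shared handling. With the replicate number as a block, 5.95% of all genes were called, and of the members Thy1 (adjusted p = 0.0466) and Ptpn22 (adjusted p = 0.0352) joined Cd7 (adjusted p = 0.000415); no other member changed its call.

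The members' median, -0.067, was -0.154 with centring (all genes -0.071) and -0.015 after a further quantile normalization (all genes -0.002), and between -0.093 and -0.053 with 1 array left out. In the same order the receptor step gave -0.117 and 0.012 (range -0.029 to -0.025), the kinase step -0.262 and -0.087 (range -0.204 to -0.096), and the adaptor step -0.188 and -0.018 (range -0.138 to -0.044); the inhibitor step gave -0.248 and -0.094 (range -0.260 to -0.064), beside -0.162.

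Signs turned in members that did not pass in either setting. With centring this held for Cd3e (-0.02), Cd3g (-0.01), Grb2 (-0.04) and Csk (-0.07). After the further quantile normalization it held for Cd247 (0.05), Cd8b1 (0.01), Cd5 (0.01), Ptprc (0.01), Plcg1 (0.00) and Bcl10 (0.01). With 1 array left out, Cd247 ranged between -0.08 and 0.02, Cd8b1 between -0.06 and 0.04, Cd4 between -0.36 and 0.23, Ptprc between -0.06 and 0.02, Grb2 between -0.03 and 0.11, Bcl10 between -0.18 and 0.10, Csk between -0.08 and 0.10 and Pag1 between -0.29 and 0.01. With 2 arrays per genotype, and 1 where an array is left out, the lone array was assumed to vary like the others.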
